A study of Mus musculus with 45 samples.

Results

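Mx1 and Mx2 are the paired Mx genes of the mouse, which code for large GTPases of the antiviral defence. They were taken from the count matrix by their gene symbols and are 2 of its 22904 genes. The pair was chosen by its levels over the strains in these same libraries, so its levels and differences are given as a description, with no test. RNA was sequenced from islets of Langerhans, the clusters of hormone-secreting cells in the pancreas, of wild-type mice of both sexes. The strains were NZO/HlLtJ, an obese strain prone to diabetes (14 libraries), CAST/EiJ, a wild-derived strain (15 libraries), and C57BL/6J, a common laboratory strain (16 libraries). From 6 weeks of age the mice ate fiber-containing chow in which fat made up either 44% or 10%, and tissue was taken at 16 weeks. Crossing strain, sex and diet gave 12 groups, 9 of them of 4 libraries, while 3 libraries each were available for CAST/EiJ males on 10% fat and in NZO/HlLtJ males on either diet. Whether the libraries of a group stem from different mice is not stated in the labels, so p-values measure the spread between libraries, which may be technical.

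Mx proteins are relatives of dynamin that bind and hydrolyse GTP and assemble into rings, and both genes are switched on by type I and type III interferons through the receptor, the Janus kinases, Stat2 and Irf9. In mice the Mx1 protein sits in the nucleus and restricts influenza and related viruses, while Mx2 is cytoplasmic and restricts other RNA viruses such as vesicular stomatitis virus. C57BL/6J, like most laboratory strains, carries an Mx1 allele that lacks several coding exons and gives no working protein, and its Mx2 is also broken. That strain is the source of the reference genome, so reads from any exon missing there would have no place to map. The annotated principal Mx1 transcript nonetheless holds 1881 coding bases. Which exons the reference lacks, and the alleles of the other strains, were not examined here.

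In the GRCm38 genome both genes lie on chromosome 16. Mx1 (ENSMUSG00000000386) covers chr16:97447035-97462907 on the minus strand, and Mx2 (ENSMUSG00000023341) covers chr16:97535308-97560900 on the plus strand, 72.4 kb further along. GENCODE M21 calls Mx1 protein coding and Mx2 a polymorphic pseudogene, while RefSeq calls both transcribed pseudogenes. The principal Mx1 transcript has 15 exons, of which 14 hold coding sequence, and the principal Mx2 transcript has 14 exons, of which 13 do. The stretches below, from the GENCODE M21 transcripts, code for the GTP-binding loop and are shown because they make the relation of the genes visible. Capitals mark the loop (coding bases 127 to 150 of Mx1 and 208 to 231 of Mx2).
Mx1: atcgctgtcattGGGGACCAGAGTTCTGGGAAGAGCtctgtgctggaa
Mx2: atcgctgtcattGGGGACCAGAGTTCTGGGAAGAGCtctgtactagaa
All 24 bases of the loop and 46 of these 48 bases were identical.

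The longest exact match between the transcripts, of 140 coding bases, is given because a read lying within it fits both genes equally well (coding bases 361 to 500 of Mx1 and 442 to 581 of Mx2).
Shared: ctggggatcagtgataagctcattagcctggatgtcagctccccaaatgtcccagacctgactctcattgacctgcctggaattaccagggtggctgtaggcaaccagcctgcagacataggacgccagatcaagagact
Of the 4115 distinct 50-base stretches in Mx1 transcripts, 159 also occur in Mx2 transcripts. The rule that divided reads fitting both genes is unknown here, so the counts of both members are uncertain to an unknown extent.

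Library totals lay between 57.2 and 110 M counts (median 84.4 M). Xist and Ddx3y, which mark female and male cells, and Nnt, which is defective in C57BL/6J, matched the labels of all 45 libraries. In 5 libraries, transcripts that are absent from the library's own strain stood at a median above 1% of their level in another strain. These were CAST/EiJ females on 44% fat replicates 1, 2 and 4, the C57BL/6J female on 44% fat replicate 2, and the NZO/HlLtJ male on 44% fat replicate 3. The labels carry codes of a 76, an 80 and an 89 series, whose meaning they leave unexplained.

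Mx1 RNA was abundant in NZO/HlLtJ islets and scarce in the other strains. Levels are given as CPM, each count over its library total and scaled to 1000000, with library totals scaled by TMM, a correction for differences in RNA composition. NZO/HlLtJ males on 44% fat had 46.7, 61.1 and 49.0 CPM, and those on 10% fat had 50.8, 36.8 and 17.4 CPM. NZO/HlLtJ females on 44% fat had 77.8, 18.2, 15.2 and 24.2 CPM, and those on 10% fat had 77.0, 57.1, 54.1 and 75.6 CPM. The levels of the strain thus ran from 15.2 to 77.8 CPM with a median of 49.9, and both the highest and the lowest library came from females on 44% fat.

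In CAST/EiJ males Mx1 stood at 1.36, 0.307, 0.545 and 0.471 CPM on 44% fat and at 0.477, 0.927 and 1.12 CPM on 10% fat. CAST/EiJ females had 1.05, 1.55, 0.487 and 0.315 CPM on 44% fat and 0.719, 0.979, 0.393 and 0.401 CPM on 10% fat. These groups overlapped throughout. In C57BL/6J males Mx1 was at 0.233, 0.406, 0.749 and 0.545 CPM on 44% fat and at 0.210, 0.415, 0.257 and 0.151 CPM on 10% fat. C57BL/6J females had 0.860, 1.52, 0.402 and 0.719 CPM on 44% fat and 0.593, 0.236, 0.532 and 0.617 CPM on 10% fat. The counts behind these values were 15 to 135 per library, so the lowest of them, 15, has an exact 95% Poisson interval of 8.4 to 24.7, which covers counting error only.

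**Figure D1:**
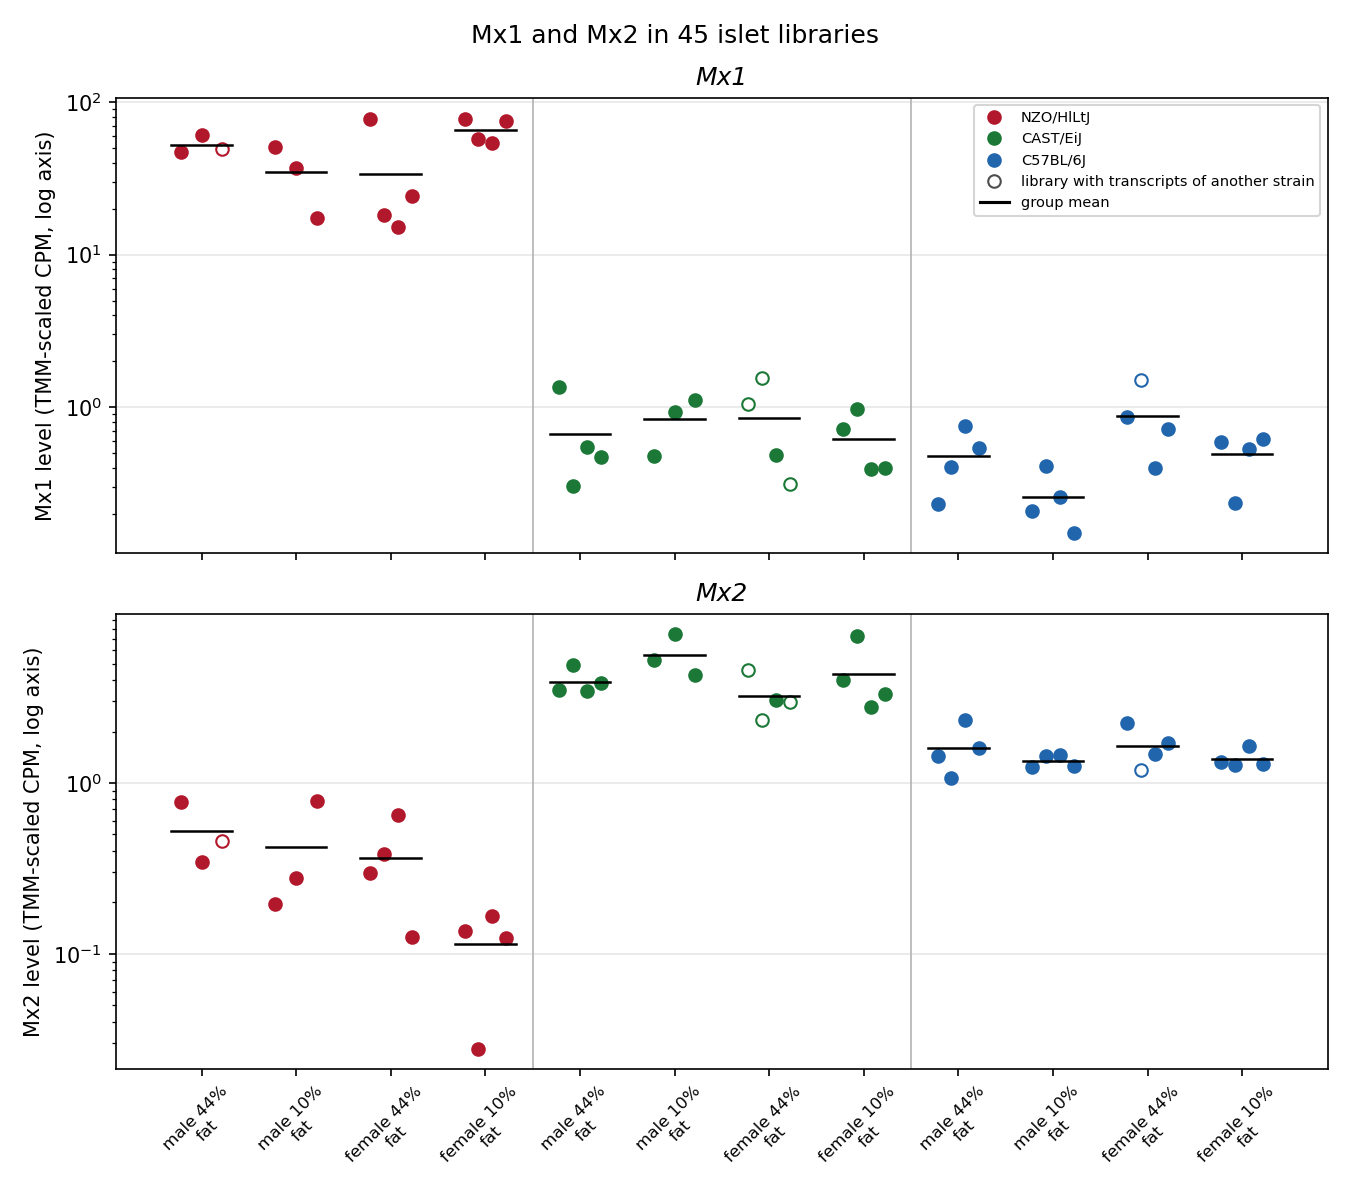
Levels of Mx1 (top) and Mx2 (bottom) in CPM on a log axis, by group of strain, sex and diet. Each point is 1 library, open points are libraries with transcripts of another strain, and lines are group means. NZO/HlLtJ libraries sit above all others for Mx1 (15.2 to 77.8 CPM) and below all others for Mx2 (0.0279 to 0.784 CPM).

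Every NZO/HlLtJ library exceeded every library of the other strains, whose highest value was 1.55 CPM. Libraries of NZO/HlLtJ stood above all others in this way for 1.38% of the 20306 genes tested. On 10% fat the fitted log2 fold change of Mx1 was 7.06 (SE 0.43, a 133-fold difference) against C57BL/6J and 6.04 (SE 0.44) against CAST/EiJ. On 44% fat it was 6.00 (SE 0.40) against C57BL/6J and 5.79 (SE 0.40) against CAST/EiJ. CAST/EiJ against C57BL/6J gave 1.02 (SE 0.43) on 10% fat and 0.22 (SE 0.39) on 44% fat, and the libraries of these strains overlapped on either diet.

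The highest Mx1 values outside NZO/HlLtJ, 1.55 and 1.52 CPM, belonged to libraries with transcripts of another strain. In the C57BL/6J female on 44% fat replicate 2, NZO/HlLtJ transcripts stood at 1.83% of their own level, and the same share of the NZO/HlLtJ median of Mx1 would be 0.911 CPM, beside the 1.52 CPM measured. In the CAST/EiJ female on 44% fat replicate 2, transcripts present in NZO/HlLtJ and absent from CAST/EiJ stood at 2.80%. The same share of Mx1 would be 1.40 CPM, beside the 1.55 CPM measured. For replicates 1 and 4 of that CAST/EiJ group the shares were 4.78% and 1.47%. They would bring 2.39 and 0.732 CPM, more than the 1.05 and 0.315 CPM measured. Without the 5 libraries the highest Mx1 level was 1.36 CPM in CAST/EiJ and 0.860 CPM in C57BL/6J. The same CAST/EiJ libraries carried C57BL/6J transcripts at higher shares, of 11.6%, 4.30% and 3.91% in replicates 1, 2 and 4. The markers were set by their levels in CAST/EiJ and in the other strain compared. Those counted for NZO/HlLtJ may therefore be C57BL/6J transcripts as well. The part of these transcripts in the Mx1 values was not tested.

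Mx2 RNA was ordered the other way, highest in CAST/EiJ, intermediate in C57BL/6J and lowest in NZO/HlLtJ. NZO/HlLtJ males had 0.778, 0.344 and 0.454 CPM on 44% fat and 0.197, 0.276 and 0.784 CPM on 10% fat. NZO/HlLtJ females had 0.295, 0.384, 0.647 and 0.126 CPM on 44% fat and 0.136, 0.0279, 0.167 and 0.124 CPM on 10% fat. Females on 10% fat were thus the lowest group, with 3 to 17 counts per library, and the count of 3 has an exact 95% Poisson interval of 0.619 to 8.77.

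In CAST/EiJ males Mx2 reached 3.51, 4.88, 3.45 and 3.86 CPM on 44% fat and 5.26, 7.41 and 4.28 CPM on 10% fat. CAST/EiJ females had 4.61, 2.35, 3.08 and 2.97 CPM on 44% fat and 3.99, 7.21, 2.77 and 3.32 CPM on 10% fat. Values above 5 CPM occurred only on 10% fat among these 15 libraries, and the groups on either diet overlapped. C57BL/6J males had 1.43, 1.08, 2.34 and 1.60 CPM on 44% fat and 1.24, 1.45, 1.46 and 1.25 CPM on 10% fat. C57BL/6J females had 2.23, 1.19, 1.48 and 1.71 CPM on 44% fat and 1.32, 1.27, 1.65 and 1.30 CPM on 10% fat. The libraries on 10% fat lay close together in this strain, between 1.24 and 1.65 CPM.

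In CPM the Mx2 levels of the strains did not overlap, though CAST/EiJ and C57BL/6J all but touched. The lowest CAST/EiJ library, the female on 44% fat replicate 2, had 2.347 CPM (204 counts), and the highest C57BL/6J library, the male on 44% fat replicate 3, had 2.341 CPM (222 counts). In the deposited variance-stabilised log2 values the same libraries crossed, at 8.135 in CAST/EiJ and 8.151 in C57BL/6J. Libraries of NZO/HlLtJ lay below all others for 1.25% of the genes tested, and those of CAST/EiJ lay above all others for 3.2%. On 10% fat the log2 fold change of Mx2 was -2.65 (SE 0.31) in NZO/HlLtJ against C57BL/6J and -4.50 (SE 0.33) in NZO/HlLtJ against CAST/EiJ. CAST/EiJ exceeded C57BL/6J by 1.86 (SE 0.27). On 44% fat the same differences were -1.90 (SE 0.29), -3.03 (SE 0.30) and 1.13 (SE 0.26). Without the 5 libraries that carry transcripts of another strain the lowest CAST/EiJ level was 2.77 CPM.

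Per length of exon, Mx1 was the higher of the pair in NZO/HlLtJ and Mx2 the higher in the other strains. In NZO/HlLtJ the median level was 13.2 CPM per kb of exon for Mx1 and 0.0790 CPM per kb for Mx2, and the ratio of Mx1 to Mx2 ran from 21.1 to 1958 over the libraries. CAST/EiJ had medians of 0.144 CPM per kb for Mx1 and 1.07 CPM per kb for Mx2. C57BL/6J had 0.125 CPM per kb for Mx1 and 0.398 CPM per kb for Mx2. Mx2 exceeded Mx1 per kb in each library of these strains but one, the C57BL/6J female on 44% fat replicate 2 named above, where Mx2 was 0.821 of Mx1 per kb. The median CPM of Mx1 lay above 83.3% of the genes tested in NZO/HlLtJ, against 28.3% in CAST/EiJ and 26.5% in C57BL/6J.

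**Figure D2:**
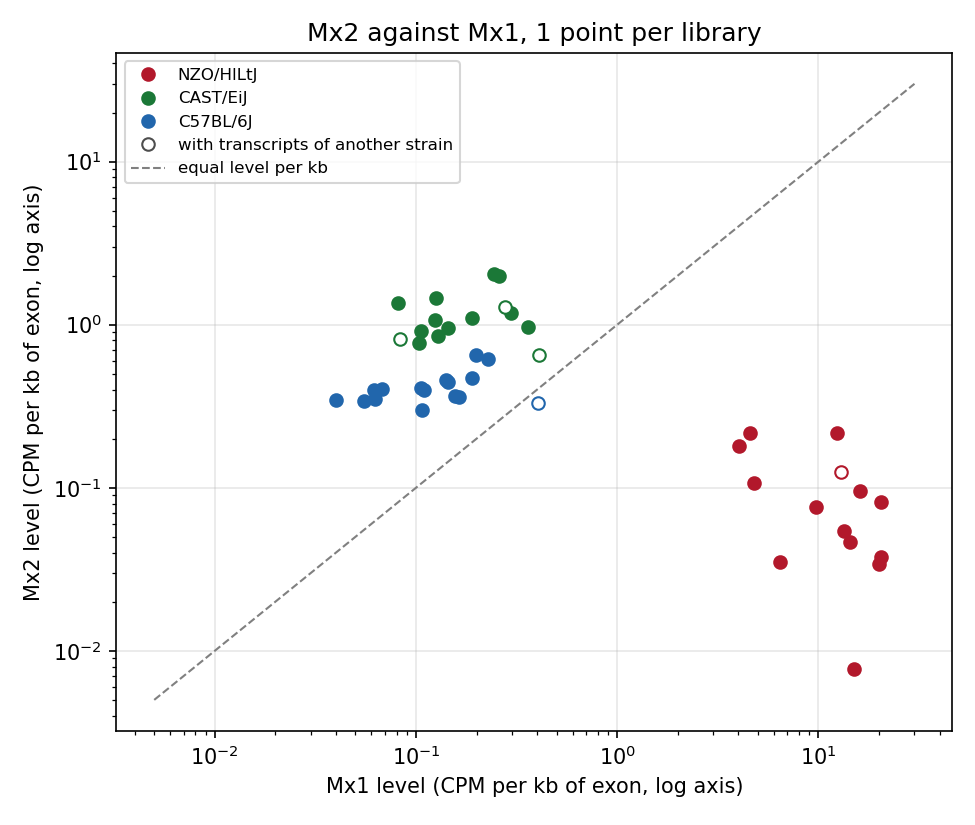
Mx2 against Mx1 in CPM per kb of exon, both on log axes, with 1 point per library, open points for libraries with transcripts of another strain, and a dashed line of equal level. The strains form separate clouds, with NZO/HlLtJ at the lower right and CAST/EiJ above C57BL/6J, and the open C57BL/6J point lies on the NZO/HlLtJ side of the line.

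Ordered by group means, Mx1 was highest in NZO/HlLtJ females on 10% fat (65.9 ± 12.03 CPM, SD, n = 4), followed by males on 44% fat (52.3 ± 7.8, n = 3), males on 10% fat (35.0 ± 16.8, n = 3) and females on 44% fat (33.9 ± 29.5, n = 4). Each of these groups overlapped the next in the order. The other 8 groups averaged between 0.258 ± 0.113 CPM in C57BL/6J males on 10% fat and 0.875 ± 0.471 CPM in C57BL/6J females on 44% fat, and neighbours in that order overlapped too. For Mx2 the order ran from CAST/EiJ males on 10% fat (5.65 ± 1.60 CPM, n = 3) to NZO/HlLtJ females on 10% fat (0.114 ± 0.060 CPM, n = 4). Neighbours in this order were separated only where the strain changed, between CAST/EiJ and C57BL/6J and between C57BL/6J and NZO/HlLtJ.

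Libraries on the 44% and 10% fat diets overlapped for both members in every strain. Averaged over males and females of NZO/HlLtJ, the log2 fold change of 44% over 10% fat was -0.19 (SE 0.34) for Mx1 and 1.01 (SE 0.32) for Mx2. Mx1 differed by 0.58 (SE 0.51) in males and by -0.96 (SE 0.44) in females, and Mx2 by 0.35 (SE 0.45) in males and by 1.67 (SE 0.45) in females. The overlap held within each sex too. In CAST/EiJ the values were 0.07 (SE 0.40) for Mx1 and -0.47 (SE 0.26) for Mx2, and in C57BL/6J they were 0.86 (SE 0.42) for Mx1 and 0.26 (SE 0.26) for Mx2. The Mx1 value of CAST/EiJ was -0.32 without the libraries that carry transcripts of another strain, which leaves 1 library of females on 44% fat.

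Sex also gave overlapping libraries, with an exception in NZO/HlLtJ on 10% fat. There Mx1 ran from 17.4 to 50.8 CPM in males and from 54.1 to 77.0 CPM in females, and Mx2 ran from 0.197 to 0.784 CPM in males and from 0.0279 to 0.167 CPM in females. Male and female libraries of this strain and diet were separated, with males lower, for 6.84% of the genes tested, and with males higher for 7.81%. As a mean over the diets the log2 difference of males from females in NZO/HlLtJ was -0.14 (SE 0.34) for Mx1 and 1.21 (SE 0.32) for Mx2. In CAST/EiJ it was 0.05 (SE 0.40) for Mx1 and 0.33 (SE 0.26) for Mx2. In C57BL/6J it was -0.88 (SE 0.42) for Mx1 and -0.04 (SE 0.26) for Mx2.

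Within NZO/HlLtJ the number series of the sample codes differed between these groups. Series 80 held only males on 44% fat and females on 10% fat, and series 89 only males on 10% fat and females on 44% fat. Mx1 ran from 49.0 to 75.6 CPM in the 4 libraries of series 80 and from 15.2 to 36.8 CPM in the 4 libraries of series 89. In series 76, which held all these groups, Mx1 was at 46.7 CPM in the male on 44% fat, 50.8 CPM in the male on 10% fat, 77.8 and 18.2 CPM in females on 44% fat and 77.0 and 57.1 CPM in females on 10% fat. The diet difference of each sex and the sex difference on each diet can therefore be told apart from the series only on these 6 libraries. With the series as a factor the diet difference over both sexes was -0.25 for Mx1 and 1.02 for Mx2. Over both sexes each diet held equally many libraries of each series, so this setting could hardly move that mean. It does not resolve the diet difference within a sex.

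Most other genes of the interferon system were higher in NZO/HlLtJ on 44% than on 10% fat, the comparison in which Mx1 was at -0.19. Across the interferon lists 86 rows passed the expression filter, and 69 of them rose by edgeR's test at an adjusted p under 0.05, while the other 17 did not pass. Over all genes tested 17.3% rose and 16.9% fell. The lists were chosen with earlier results of these data known, so their counts beside these shares are a description. The median log2 fold change was 1.00 over the lists and -0.02 over all genes.

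Among 38 interferon-induced antiviral genes 32 rose, with a median log2 fold change of 1.10. They included Oas3 (2.89, SE 0.37, adjusted p = 3.19e-07) and Oas2 (1.82, SE 0.33, adjusted p = 5.99e-05), enzymes that make the activator of RNase L. Zbp1, a sensor of Z-form nucleic acid, rose by 2.64 (SE 0.41, adjusted p = 7.82e-06), and Ifit3, of the RNA-binding IFIT family, by 1.79 (SE 0.33, adjusted p = 8.4e-05). Ifi27l2a rose by 2.04 (SE 0.37, adjusted p = 6.86e-05). Mx2, at 1.01, lay near the median of these genes, and Mx1, at -0.19, below it.

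All 17 rows of the other interferon-induced GTPases rose, with a median of 1.52. These are guanylate-binding proteins and immunity-related GTPases, which act on vacuoles of intracellular pathogens. Gbp10 rose by 2.25 (SE 0.64, adjusted p = 0.00648), Iigp1 by 2.05 (SE 0.48, adjusted p = 0.00147) and Tgtp2 by 2.04 (SE 0.44, adjusted p = 0.000604). Reads of such close relatives may be split among them, so single values are uncertain. Of the 4 dynamins, the wider family of the Mx proteins, 3 fell, namely Dnm1 (-0.61, SE 0.19), Dnm3 (-0.43, SE 0.09) and Dnm1l (-0.27, SE 0.08), with adjusted p of 0.0126, 0.000294 and 0.00468.

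Among the receptors and kinases 4 of 9 rose, all of them receptor chains. The second chain of the type I receptor, Ifnar2, rose by 0.54 (SE 0.09), the chains of the interferon gamma receptor by 0.61 (Ifngr1, SE 0.09) and 0.53 (Ifngr2, SE 0.10), and Il10rb, shared by the type III receptor, by 0.62 (SE 0.08). Their adjusted p lay between 3.04e-07 and 7e-05. Ifnar1 (0.15, SE 0.06) and Ifnlr1 (0.14, SE 0.20) did not pass the test, nor did the kinases Jak1 (-0.17, SE 0.08), Jak2 (0.07, SE 0.08) and Tyk2 (0.11, SE 0.08).

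Of 10 transcription factors and feedback genes 8 rose. Stat2, which carries the signal of the type I receptor to the nucleus, rose by 0.51 (SE 0.13, adjusted p = 0.00195). The interferon regulatory factors Irf5, Irf8 and Irf7 rose by 1.79 (SE 0.22), 1.68 (SE 0.30) and 1.51 (SE 0.25). Of 12 nucleic acid sensors and adaptors 8 rose, led by the endosomal receptors Tlr7 (2.38, SE 0.33) and Tlr9 (1.89, SE 0.35) and by Tmem173, the adaptor STING (1.66, SE 0.27). Of 13 interferon genes themselves 1 was in the matrix, and it did not pass the filter.

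**Figure D3:**
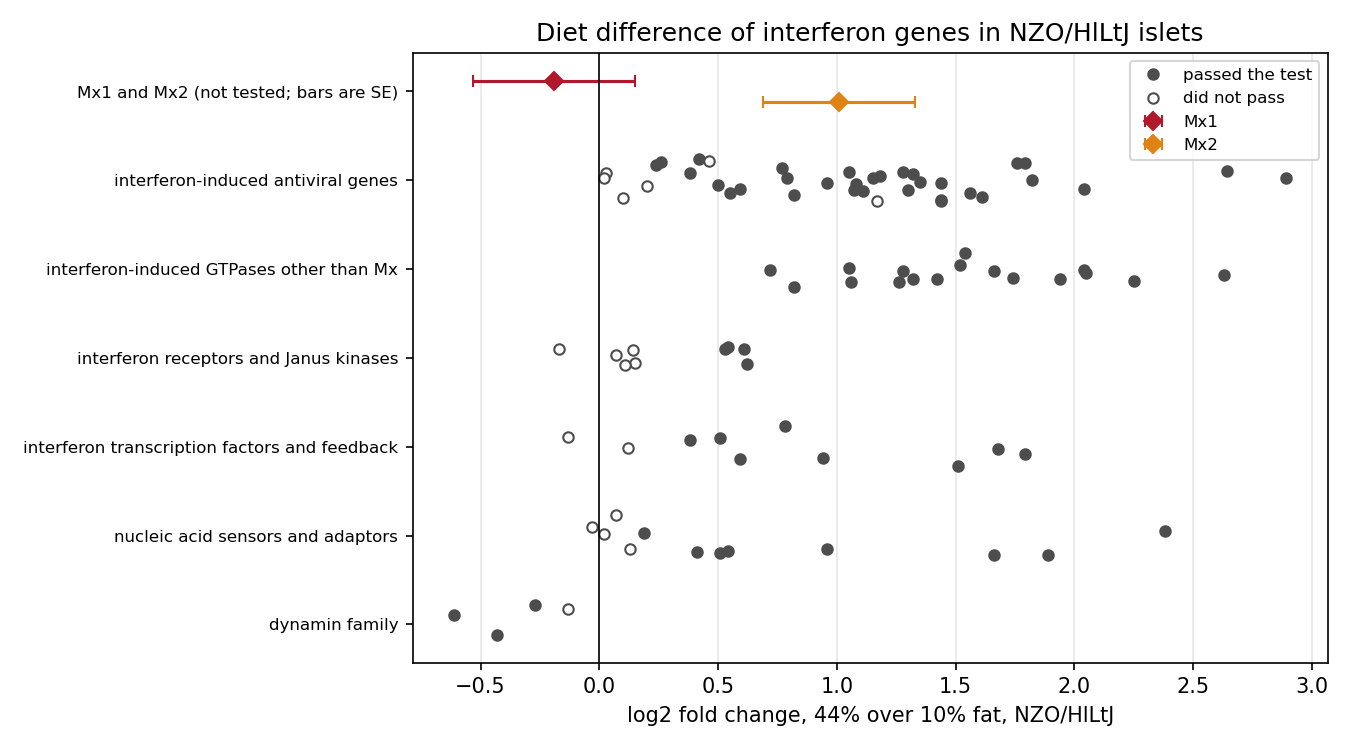
Log2 fold change of 44% over 10% fat in NZO/HlLtJ for Mx1 and Mx2 (diamonds, bars are SE, not tested) and for each gene of 6 lists (points, filled where the edgeR test was passed), with a random vertical offset within a list. Mx1 (-0.19) lies left of all 38 genes of the antiviral list, whose median is 1.10, and Mx2 (1.01) lies among them.

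Sex gave a like picture in NZO/HlLtJ. In males 69 of the 86 rows were higher than in females, against 14.5% of all genes, with a median log2 difference of 1.22. Oas3 (2.82, SE 0.35, adjusted p = 3.67e-07), Iigp1 (2.67, SE 0.47, adjusted p = 0.000116) and Irf7 (2.12, SE 0.25, adjusted p = 2.26e-07) were among them. Mx2 was at 1.21 in this comparison and Mx1 at -0.14. Cell markers differed here too. In males 10 of 11 macrophage rows, 6 of 6 fibroblast, 5 of 6 endothelial, 4 of 5 duct cell and 4 of 8 lymphocyte markers were higher. Of 8 beta cell markers 5 were lower, as were 2 of 4 alpha cell markers. The part of these cells in the sex difference was not tested.

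Outside NZO/HlLtJ no interferon row passed edgeR's test for diet or sex. For diet, 6 of 86 rows had an unadjusted p under 0.05 in CAST/EiJ and 0 in C57BL/6J, and DESeq2 called 1 in CAST/EiJ and 0 in C57BL/6J. The share of all genes called in either direction was 0.0295% in CAST/EiJ and 0.0246% in C57BL/6J. For sex, 7 rows in CAST/EiJ and 8 in C57BL/6J had an unadjusted p under 0.05, and 0.719% of all genes in CAST/EiJ and 0.276% in C57BL/6J were called in either direction. DESeq2 was not run for sex.

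For many interferon genes the diet difference itself was larger in NZO/HlLtJ. By the edgeR test of that difference it exceeded that of C57BL/6J in 48 of the 86 rows, against 8.87% of all genes, and that of CAST/EiJ in 56 rows, against 12.4%. Oas3 differed by 2.32 (SE 0.49, adjusted p = 0.00127) from C57BL/6J and by 3.04 (SE 0.56, adjusted p = 0.000254) from CAST/EiJ. Without the 5 libraries named above the counts were 27 and 37, and with library totals in place of TMM they were 12 and 28. The shares of all genes under these other settings are not given here. Against C57BL/6J and CAST/EiJ in turn, the diet difference of NZO/HlLtJ differed by -1.05 (SE 0.54) and -0.26 (SE 0.52) for Mx1. For Mx2 it differed by 0.75 (SE 0.41) and 1.48 (SE 0.41).

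Markers of other cells moved with these genes in NZO/HlLtJ. All 11 rows of 10 macrophage markers rose on 44% fat, as did 6 of 8 lymphocyte markers, 6 of 6 fibroblast markers, 4 of 5 duct cell markers and 4 of 6 endothelial markers, while 5 of 8 beta cell markers fell. Over all genes 17.3% rose and 16.9% fell. Of 8 acinar cell markers 0 passed the test, with a median log2 fold change of 1.01. Their sum differed widely between libraries, from 316 to 404000 CPM over all strains. The summed macrophage markers were at 498 to 909 CPM in males on 44% fat, 84.8 to 268 CPM in males on 10% fat, 159 to 225 CPM in females on 44% fat and 59.7 to 68.5 CPM in females on 10% fat. Of 5 plasmacytoid dendritic cell markers 3 rose and 1 fell. Siglech, the defining one, reached 3.24 to 4.49 CPM in males on 44% fat and 0.362 to 1.63 CPM in the other NZO/HlLtJ groups. Summed over the 5 markers, however, males on 44% fat overlapped the other NZO/HlLtJ groups. Over all strains the library with the highest acinar sum (404000 CPM), the CAST/EiJ female on 10% fat replicate 4, also had the highest sum of these 5 markers (3580 CPM). Next in both came the C57BL/6J female on 10% fat replicate 4, at 205000 and 2410 CPM. The lowest acinar sum, 316 CPM in the CAST/EiJ male on 10% fat replicate 1, stood beside 52 CPM of these 5 markers. How far acinar RNA enters the sum of these 5 markers was not tested. In bulk RNA a change in the number of cells of a type cannot be told apart from a change in RNA per cell. The part of these cells in the interferon genes or in the Mx levels was not tested.

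On 10% fat most interferon genes were higher in NZO/HlLtJ and lower in CAST/EiJ than in C57BL/6J, while Mx2 had the opposite sign in both comparisons and Mx1 was above 0 in both. In NZO/HlLtJ against C57BL/6J 47 of 86 rows were higher and 5 lower, where 22.2% of all genes were higher and 19.9% lower, and the median was 0.48 over the lists. The higher genes included Isg15, a ubiquitin-like modifier (1.25, SE 0.24, adjusted p = 4.9e-05), Ifi47 (1.62, SE 0.24, adjusted p = 7.51e-07), Iigp1 (2.59, SE 0.47, adjusted p = 5.85e-05) and Gbp2 (1.82, SE 0.28, adjusted p = 2.26e-06). Rsad2, which codes for the antiviral protein viperin (-0.70, SE 0.22, adjusted p = 0.0115), Herc6 (-0.75, SE 0.13, adjusted p = 1.69e-05), Cmpk2 (-0.56, SE 0.12, adjusted p = 0.000293), Trim25 (-0.20, SE 0.07, adjusted p = 0.0211) and Gvin1 (-1.19, SE 0.27, adjusted p = 0.000513) were the lower ones. Beside the 7.06 of Mx1, the value farthest from 0 in the interferon lists was that of Gbp10 at 3.50 (SE 0.70, adjusted p = 0.000113).

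CAST/EiJ was lower than C57BL/6J in 53 of the 86 rows and higher in 5, where 23.2% of all genes were lower and 23.8% higher, and the median was -0.58. Ifi44 (-4.41, SE 0.37, adjusted p = 9.43e-13), the helicase Ddx60 (-3.25, SE 0.29, adjusted p = 4.45e-12) and Oas1a (-2.86, SE 0.22, adjusted p = 2.66e-14) were among the lower ones, as was Ifih1, the RNA sensor MDA5 (-2.34, SE 0.14, adjusted p = 2.88e-17). Iigp1 and Tgtp2 stood at no more than 0.174 and 0.360 CPM in any CAST/EiJ library, against at least 2.18 and 2.67 CPM in each C57BL/6J library. The higher ones were Usp18, a protease that removes Isg15 and dampens the receptor (1.56, SE 0.12, adjusted p = 1.23e-13), Irf8 (1.12, SE 0.29), Xaf1 (0.82, SE 0.17), Ifngr1 (0.65, SE 0.08) and Tbk1 (0.17, SE 0.06). Mx2, at 1.86 in this comparison, stood with these few and not with the many. It is unknown here whether mapping allowed for strain variants, and reads of a divergent allele can be lost.

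NZO/HlLtJ exceeded CAST/EiJ in 67 rows and fell below it in 3, where 27.1% of all genes were higher and 26.3% lower. The 3 were Usp18 (-0.54, SE 0.13), Ifngr1 (-0.49, SE 0.09) and Jak1 (-0.32, SE 0.08). On 44% fat the counts were 71 higher and 2 lower in NZO/HlLtJ against C57BL/6J (31.8% and 34.5% of all genes), 6 higher and 60 lower in CAST/EiJ against C57BL/6J (24.2% and 25.1%), and 78 higher and 2 lower in NZO/HlLtJ against CAST/EiJ (35.7% and 34.2%).

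Markers of other cells differed in these comparisons too. In NZO/HlLtJ against C57BL/6J on 44% fat all 11 macrophage rows were higher, as were 7 of 8 lymphocyte, 6 of 6 endothelial, 6 of 6 fibroblast and 5 of 5 duct cell markers, while 4 of 4 alpha cell markers were lower. On 10% fat 6 of 6 endothelial, 4 of 6 fibroblast and 4 of 5 duct cell markers were higher. There 4 of 4 alpha cell and 3 of 3 delta cell markers were lower, and the 11 macrophage rows had a median log2 difference of 0.28. Of all genes, 31.8% were higher and 34.5% lower in NZO/HlLtJ against C57BL/6J on 44% fat, and 22.2% and 19.9% on 10% fat. In NZO/HlLtJ against CAST/EiJ on 44% fat all 11 macrophage rows and 7 of 8 lymphocyte markers were higher, beside 35.7% of all genes. On 10% fat 1 of 11 macrophage rows was higher and 1 lower, no more than the 27.1% and 26.3% of all genes. In CAST/EiJ against C57BL/6J 4 of 11 macrophage rows were higher and 1 lower on 10% fat, and 1 was higher and 2 lower on 44% fat. Of all genes, 23.8% were higher and 23.2% lower there on 10% fat, and 24.2% and 25.1% on 44% fat. The macrophage counts on 44% fat did not exceed these shares. Of 8 beta cell markers, 5 were higher in CAST/EiJ on 10% fat and 6 on 44% fat. The part of these cells in the strain differences was not tested.

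Among the 14 NZO/HlLtJ libraries Mx1 is set beside the antiviral list group by group. With 3 or 4 libraries per group, a difference in this relation between groups was not tested. The median over the 38 genes of that list was 20.4 to 25.4 CPM in males on 44% fat, 7.69 to 7.79 CPM in males on 10% fat, 3.55 to 10.7 CPM in females on 44% fat and 3.23 to 4.62 CPM in females on 10% fat. Females on 10% fat, with the lowest antiviral medians, had the highest mean of Mx1. Pearson's r between the log2 levels over these libraries, given as a description, was 0.197 for Mx1 (Spearman's rho 0.0374) and 0.469 for Mx2 (rho 0.534). These values pool groups with different means. In females on 10% fat Mx1 followed the antiviral median in exact order, with 77.0, 75.6, 57.1 and 54.1 CPM of Mx1 at medians of 4.62, 3.92, 3.38 and 3.23 CPM. In females on 44% fat Mx1 was at 77.8, 24.2, 15.2 and 18.2 CPM at medians of 10.7, 7.03, 4.05 and 3.55 CPM, so the order held but for the lowest pair. Males on 44% fat had 49.0, 61.1 and 46.7 CPM at medians of 25.4, 22 and 20.4 CPM, with no such order. In the 3 males on 10% fat, whose antiviral medians were nearly equal, Mx1 was at 50.8, 36.8 and 17.4 CPM and Mx2 at 0.197, 0.276 and 0.784 CPM. Over the 14 libraries r between Mx1 and Mx2 was -0.535 (rho -0.552).

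**Figure D4:**
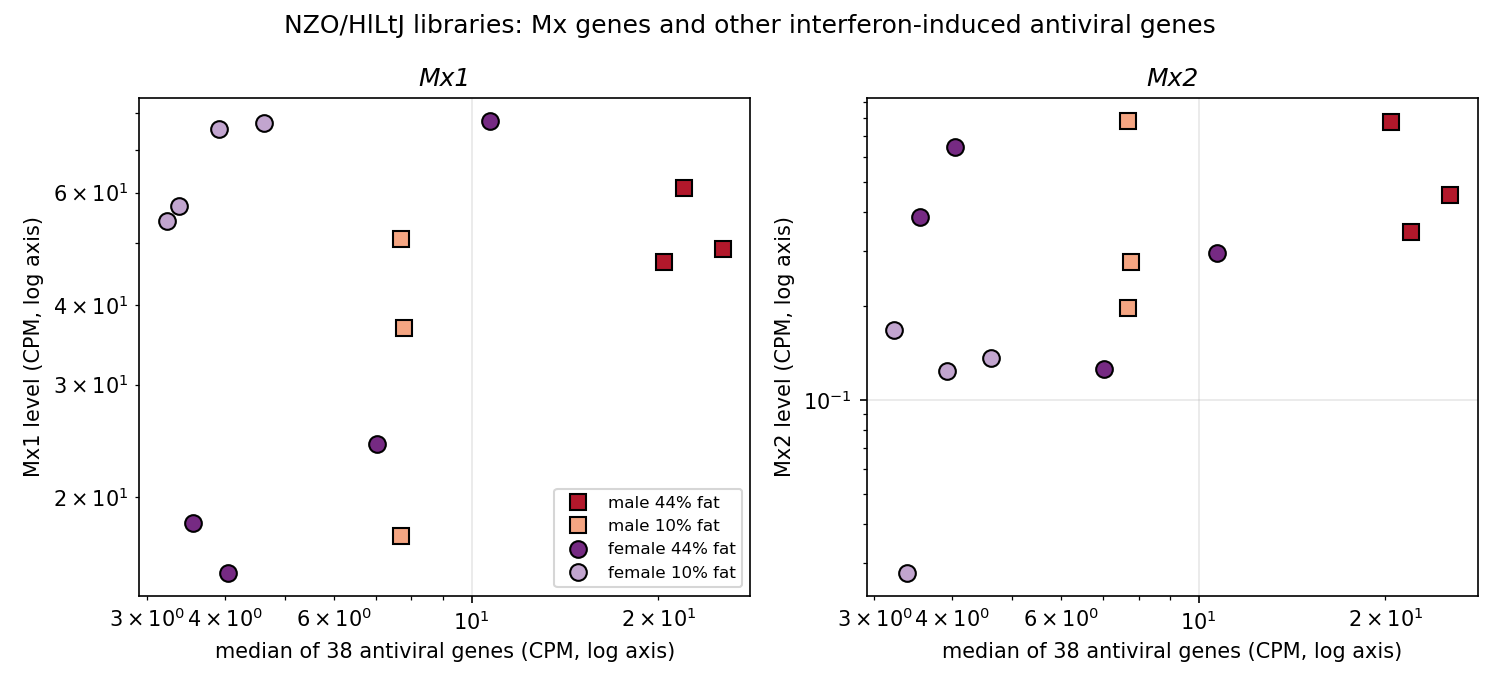
Mx1 (left) and Mx2 (right) against the median of 38 antiviral genes in the 14 NZO/HlLtJ libraries, in CPM on log axes, with squares for males and circles for females. Males on 44% fat stand apart on the horizontal axis at 20.4 to 25.4 CPM, while their Mx1 values of 46.7 to 61.1 CPM lie within the range of the other groups.

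The genes most like Mx1 over the 14 NZO/HlLtJ libraries were Znfx1 (r = 0.915), Rimklb (0.88), Trim56 (0.872), RP24-445D7.1 (0.871) and Gm42840 (0.864). Znfx1, a helicase-like protein that senses viral RNA, ran from 71.3 to 145 CPM and Trim56, an antiviral ubiquitin ligase, from 59.7 to 98.9 CPM, a far narrower spread than that of Mx1. RP24-445D7.1 and Gm42840 stayed at or below 0.187 CPM, so their likeness rests on few counts. Within the interferon lists Adar, the RNA-editing enzyme, came closest to Mx1 (0.856), and the median r was 0.135 over 85 genes, beside 0.0411 over all genes. Most like Mx2 were Ephx3 (0.898), Nrarp (0.891), Klhl1 (0.887), St7 (0.87) and Wdr72 (0.859), none of them in the lists, whose median r was 0.467. The libraries share number series and depth, and these values carry no test.

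Over the 12 group means the genes most like Mx1 included Gm3002 (r = 0.991), Gm10093 (0.987) and Hist2h2aa2 (0.986). Most like Mx2 were Faap20 (0.983), Gm42923 (0.981), Ccdc14 (0.977), Gm19325 (0.977) and Slc4a10 (0.976), of which Ccdc14 also lies on chromosome 16. None of these 8 is in the interferon lists. Over the same means the median r of the 85 list genes was 0.68 with Mx1, with 78 of them positive, and -0.678 with Mx2, with 6 positive. The medians over all genes were -0.0502 for Mx1 and -0.000406 for Mx2. The means share strain as their main difference, and these values carry no test. The members themselves had r = -0.825 over the group means (rho -0.49).

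In NZO/HlLtJ against C57BL/6J, no gene beside the Mx genes came close to the Mx1 difference, while in CAST/EiJ some of them differed more than Mx1 did. Within 500 kb of the Mx genes 10 other genes are annotated, and 9 passed the filter. In NZO/HlLtJ against C57BL/6J on 10% fat C2cd2 was higher (0.37, SE 0.09, adjusted p = 0.00103), and Dscam (-0.93, SE 0.11, adjusted p = 3.14e-09), Prdm15 (-0.55, SE 0.11, adjusted p = 0.000102) and B230307C23Rik (-0.47, SE 0.19, adjusted p = 0.0486) were lower. Bace2, a protease whose gene ends next to Mx1, was at -0.05 (SE 0.13), Tmprss2, a membrane protease next to Mx2, at -0.18 (SE 0.20), Ripk4 at -0.03 (SE 0.08), Zbtb21 at -0.02 (SE 0.08) and C030010L15Rik at -1.03 (SE 0.65), and none of these passed the test.

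In CAST/EiJ against C57BL/6J on 10% fat, where Mx2 was at 1.86, the gene next to it, Tmprss2, was lower by 2.40 on the log2 scale (SE 0.22, adjusted p = 1.58e-11). Dscam (-1.24, SE 0.11, adjusted p = 1.32e-12) and Bace2 (-0.55, SE 0.13, adjusted p = 0.000566) were also lower, C2cd2 was higher (0.31, SE 0.09, adjusted p = 0.0039), and the other 5 did not pass the test. Of these 9 genes, C2cd2 and Dscam passed the test with the same sign in both strains, and both comparisons use the same C57BL/6J libraries. Of all genes tested, 22.2% were higher and 19.9% lower in NZO/HlLtJ, and 23.8% were higher and 23.2% lower in CAST/EiJ.

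**Figure D5:**
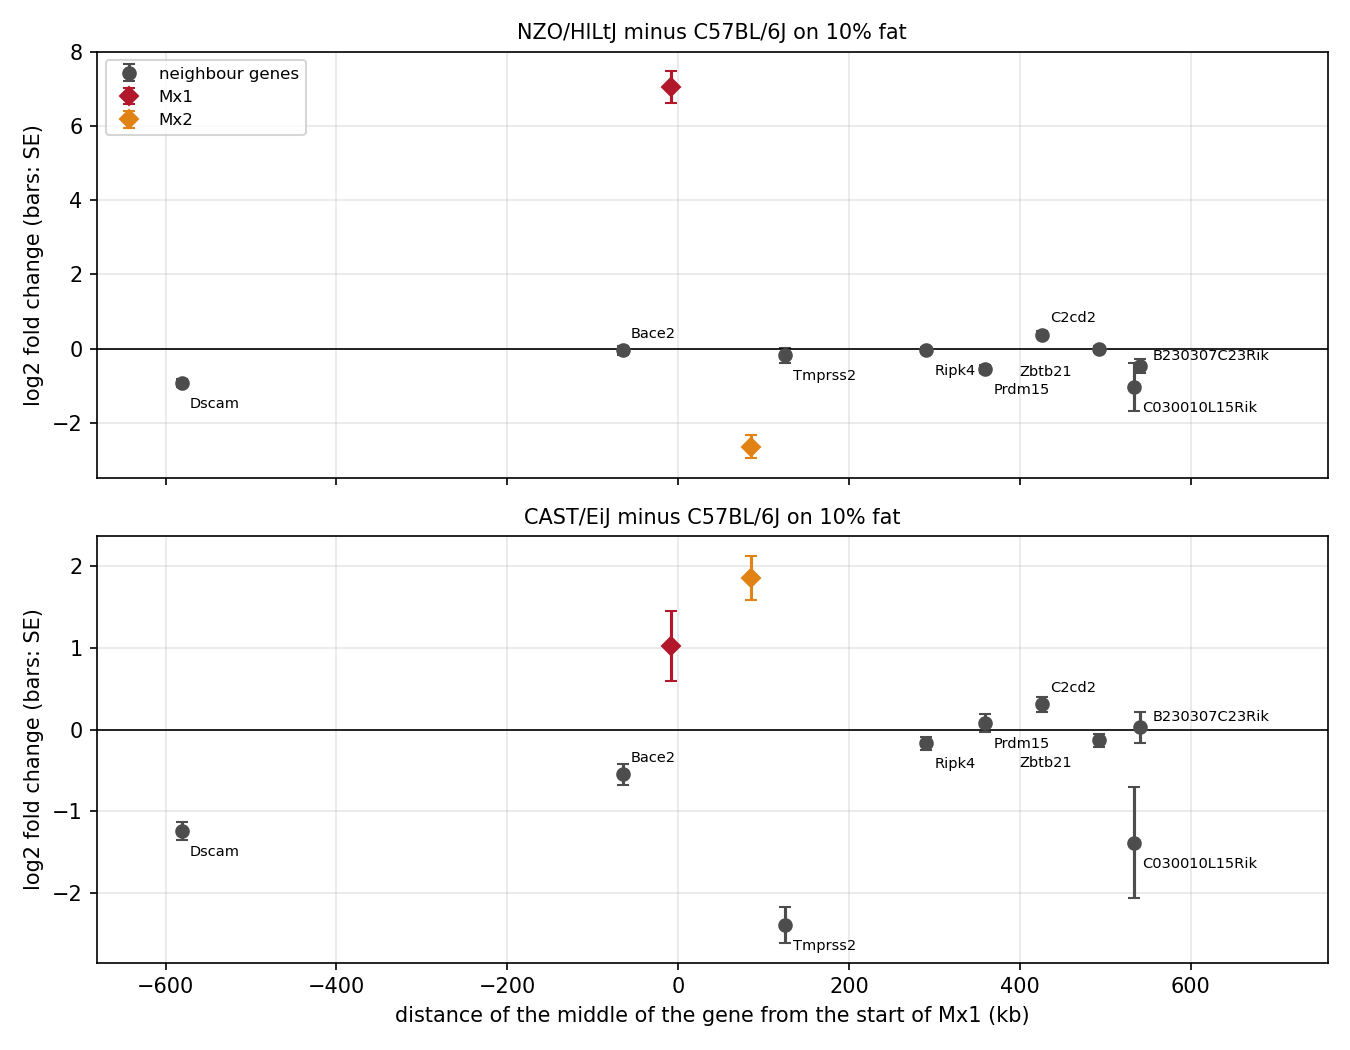
Log2 fold change (bars are SE) of Mx1, Mx2 and the 9 tested genes within 500 kb, against the distance of the middle of each gene from the start of Mx1 in kb, for NZO/HlLtJ (top) and CAST/EiJ (bottom) against C57BL/6J on 10% fat. In the top panel Mx1 stands alone at 7.06, and in the bottom panel Mx2 at 1.86 and Tmprss2 at -2.40 lie farthest from 0.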

How the data were processed

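Islet RNA was measured in 45 libraries. The authors deposited estimated counts per gene, of which 23.6% are not whole numbers; how the fractions arose, and by which counting program, was not found. GRCm38 is the build, and DESeq2 is a tool, per the submitters' processing notes. The authors also deposited variance-stabilised values on a log2 scale, used here as an alternative only. Estimated counts were rounded to whole numbers and tested with edgeR 4.0.16 in R 4.3.3 (TMM, default expression filter over the 12 groups, quasi-likelihood F test, robust, Benjamini-Hochberg, adjusted p under 0.05). All 45 libraries entered 1 fit of the 12 groups without covariates, and 20306 genes were tested. Each SE is the size of the log2 fold change over the square root of F. Levels for correlations are log2(CPM + 0.5). The script was tested on simulated data.

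The members and the gene lists were chosen with earlier results of these data known. Beside Mx1 and Mx2 the rule named up to 5 called genes with the largest change per list and comparison, the 5 genes most like each member, tested genes within 500 kb, and receptors, kinases and STATs. Genes outside this rule were chosen after their values were seen, and some genes it names are not reported here. Alternatives were RLE, library totals, no filter, DESeq2 1.42.0, fewer strains, the number series, and left-out libraries. Replicates were numbered in accession order, which pairs no libraries.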

Additional observations from a re-analysis of the deposited data

Results flagged for a closer look

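In NZO/HlLtJ females on 44% fat, replicate 1 had 77.8 CPM of Mx1 while the other 3 libraries lay between 15.2 and 24.2 CPM, so that 1 library stood far from the rest of its group. In C57BL/6J females on 10% fat, replicate 3 had 1.65 CPM of Mx2 while the others lay between 1.27 and 1.32 CPM. The 9 groups of 4 libraries were looked at in this way for each gene, which made 18 sets of values, and these were the 2 that stood out. Chance gives about 1 in 20 sets, so among 18 sets a flag can well arise by chance. The Mx2 value of 1.65 CPM rested on 130 counts, beside 80 to 118 counts in the others of its group.

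Of 86 interferon rows, the effect of diet differed by edgeR's test in 48 for NZO/HlLtJ against C57BL/6J and in 56 for NZO/HlLtJ against CAST/EiJ. All had the larger value in NZO/HlLtJ, as did 8.87% and 12.4% of all genes tested.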

How the results depend on the processing

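Of 225 values under settings other than leaving out 1 library, 18 moved beyond the limit set for them. With library totals in place of TMM, the interferon genes whose diet effect differed numbered 12 for NZO/HlLtJ against C57BL/6J and 28 for NZO/HlLtJ against CAST/EiJ. Library totals shifted the median of all genes by -0.132 for diet in NZO/HlLtJ, and by -0.181 and -0.168 for NZO/HlLtJ against C57BL/6J and against CAST/EiJ on 44% fat. Without the 5 libraries that carry transcripts of another strain, the same counts were 27 and 37. That setting leaves 1 library of CAST/EiJ females on 44% fat, which is assumed to vary like the other groups. DESeq2 called 1 interferon gene for diet in CAST/EiJ. The shares of all genes called under these settings are not given here, and the cause of these moves was not tested.

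The deposited variance-stabilised values, which compress low levels by construction, gave smaller Mx1 differences: 5.22 and 4.64 for NZO/HlLtJ against C57BL/6J on 10% and 44% fat, 4.81 and 4.59 against CAST/EiJ, 0.41 for CAST/EiJ against C57BL/6J on 10% fat and 0.34 for diet in C57BL/6J. For Mx2 they gave -1.17 and -0.99 for NZO/HlLtJ against C57BL/6J, -2.47 and -1.79 against CAST/EiJ, 1.30 and 0.80 for CAST/EiJ against C57BL/6J, and 0.33 for diet in NZO/HlLtJ.

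Of 540 values with 1 library left out, 4 moved. Without replicate 3 of NZO/HlLtJ males on 10% fat, Mx2 was at 1.42 for diet in NZO/HlLtJ (range over libraries 0.79 to 1.42), at -3.05 against C57BL/6J (-3.05 to -2.45) and at -4.91 against CAST/EiJ on 10% fat (-4.91 to -4.32). For sex in CAST/EiJ the count of interferon genes ranged from 0 to 1, with 1 reached without replicate 1 of females on 44% fat. Mx1 for diet in NZO/HlLtJ ranged from -0.60 to -0.02. The sign of Mx1 for diet in CAST/EiJ, or for CAST/EiJ against C57BL/6J on 44% fat, turned in 9 values. At 15 to 135 counts of Mx1 per library outside NZO/HlLtJ, such differences were not resolved. No paired analysis was possible because the replicate numbers were given in accession order and pair no libraries.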
